A study of Mus musculus with 4 samples.

Results

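The chemokine ligand genes that activated B cells can transcribe were followed across the genotypes as a set of 8: Ccl22, Ccl17, Ccl3, Ccl4, Ccl5, Cxcl9, Cxcl10 and Cxcl16. They were found by gene symbol, 8 of the 55401 rows of the deposited count table, and all 8 were present. Poly(A) RNA came from splenic B cells of C57BL/6 mice, enriched with beads against CD43, a surface protein that T cells, NK cells and myeloid cells carry and resting B cells mostly lack, and stimulated in culture over 36 h by anti-CD40 at 1 µg/ml together with anti-IgM at 10 µg/ml. The design compares 2 libraries from wild-type mice with 2 from mice labelled Adar1 cKO, a conditional knockout in B cells of the gene for the RNA-editing enzyme ADAR1. The labels give neither the promoter that drives the deletion, nor the age of the mice, nor whether mice were pooled, and both genotypes received the same stimulation.

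Chemokines are small secreted proteins that guide leukocytes along a gradient by binding G-protein-coupled receptors. They are classed by the first conserved cysteines, which are adjacent in the CC family and separated by a residue in the CXC family. CCL22 and CCL17 bind CCR4 on T cells, and CCL22 is a known product of B cells stimulated through CD40. CCL3, CCL4 and CCL5 attract T cells, NK cells and monocytes, and CCL3 and CCL5 bind CCR1. Genes for CXCL9 and CXCL10, the ligands of CXCR3, are known targets of interferon, and CXCL16, the ligand of CXCR6, is made as a membrane protein that proteases can release.

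The libraries held 17327480 to 19669651 counts, and 3 counts, taken here as the floor of detection, were worth 0.153 to 0.173 CPM (counts scaled to a common library size, with TMM factors in the values below). Wild-type library 2 had the highest share of counts in ribosomal RNA rows, 0.525% against 0.0947% to 0.125% in the others. Leaving those rows out did not change the call of any member. The targeted gene, Adar, stood at 137 and 150 CPM in wild type while cKO-labelled libraries 1 and 2 reached 218 and 233 CPM, against the direction the label names. A gene-level count is blind to which part was deleted, so the libraries are called cKO-labelled and every direction below rests on that label. The labels do not say whether libraries of a genotype came from separate mice or cultures, so p-values measure only the spread between these libraries.

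The members sit in 4 places of the genome (GRCm38, coordinates of the deposited table), and 2 nearby pairs of members show how differently chemokine genes of the same cluster were transcribed. Ccl22 (ENSMUSG00000031779, chromosome 8, 94745590 to 94751699, plus strand) and Ccl17 (ENSMUSG00000031780, chromosome 8, 94810453 to 94812036, plus strand) lie 58.8 kb apart. Cxcl9 (ENSMUSG00000029417, chromosome 5, 92321347 to 92328079, minus strand) and Cxcl10 (ENSMUSG00000034855, chromosome 5, 92346638 to 92348889, minus strand) lie 18.6 kb apart. Ccl5 (ENSMUSG00000035042, chromosome 11, 83525778 to 83530518, minus strand) lies 117.3 kb from Ccl3 (ENSMUSG00000000982, chromosome 11, 83647844 to 83649355, minus strand). Ccl4 (ENSMUSG00000018930, chromosome 11, 83662584 to 83664683, plus strand) begins 13.2 kb beyond Ccl3. Cxcl16 (ENSMUSG00000018920, chromosome 11, 70453983 to 70459984, minus strand) is on the same chromosome, far from these.

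RefSeq promoter sequences on GRCm38.p6 were found for 5 of the 8 members, and those of both pairs are shown because they hold the most and the least abundant chemokines and the one with the largest change. Each is the stretch before the start of the gene in the deposited table (156 bases for Ccl22, whose RefSeq start lies inside the tabulated gene), 5′ to 3′ on the strand of the gene. Capitals mark matches to GAAANNGAAA (the core of the interferon-stimulated response element), to the kB consensus bound by NF-kB, or to TTCNNNGAA (the core of the STAT-bound gamma-activated site). Matches were searched for on both strands of the 250 bases before the RefSeq start site.
Cxcl10, chr5:92348890-92349139, minus strand: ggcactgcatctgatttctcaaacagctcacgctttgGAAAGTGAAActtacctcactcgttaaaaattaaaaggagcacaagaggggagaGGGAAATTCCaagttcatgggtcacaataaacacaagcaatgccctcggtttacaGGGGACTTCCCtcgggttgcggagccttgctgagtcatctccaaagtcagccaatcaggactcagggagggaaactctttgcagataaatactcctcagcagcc
Cxcl9, chr5:92328080-92328329, minus strand: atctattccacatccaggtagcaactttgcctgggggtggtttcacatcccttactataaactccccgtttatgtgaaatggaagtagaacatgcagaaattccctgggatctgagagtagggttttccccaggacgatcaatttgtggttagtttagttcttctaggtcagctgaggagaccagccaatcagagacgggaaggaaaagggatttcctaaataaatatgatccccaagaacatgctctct
Ccl22, chr8:94745434-94745589, plus strand: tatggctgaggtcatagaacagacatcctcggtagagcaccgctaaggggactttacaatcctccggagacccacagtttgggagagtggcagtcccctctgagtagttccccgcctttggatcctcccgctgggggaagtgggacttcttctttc
Ccl17, chr8:94810203-94810452, plus strand: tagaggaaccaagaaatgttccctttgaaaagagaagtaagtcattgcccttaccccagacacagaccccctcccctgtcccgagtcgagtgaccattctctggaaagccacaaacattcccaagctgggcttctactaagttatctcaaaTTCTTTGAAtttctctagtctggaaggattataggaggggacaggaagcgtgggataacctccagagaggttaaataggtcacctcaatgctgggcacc

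The Cxcl10 promoter held GAAAGTGAAA from 213 to 204 bases before the start. It also held kB matches, GGGAAATTCC from 159 to 150 bases before the start and, overlapping each other, GGGGACTTCC from 104 and GGGACTTCCC from 103. Of 32851 promoters of the same length, 2.98% held GAAANNGAAA and 7.25% the kB consensus. The Ccl17 promoter held TTCTTTGAA, which reads as a match on both strands, from 99 to 91 bases before its start, and 7.02% of all promoters held TTCNNNGAA. None of the 3 motifs stood in the windows of Cxcl9, Ccl22 or Ccl3. A match describes letters only, and no match in a window says nothing of the factor.

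The comparison of genotypes asks which chemokine transcripts differ where Adar1 is labelled as deleted. In all, 6 members had enough counts to be tested, each in the libraries of both genotypes, and all 6 were higher in the cKO-labelled libraries at an adjusted p under 0.05, where 12.2% of the 14180 genes tested were called higher and 9.54% lower. Of them, 4 rose at least 2-fold, as 4.06% of all genes tested did. In order of size, Cxcl10 rose 12.3-fold, Ccl5 6.92-fold, Cxcl16 6.11-fold, Ccl22 2.09-fold, Ccl4 1.86-fold and Ccl3 1.26-fold. The median log2 change of the 6 was 1.84, and that of all genes tested was -0.0058. Ccl17 and Cxcl9 did not pass the filter on low counts and were not tested. For all 8 members both cKO-labelled libraries lay above both wild-type libraries, an order that 29.2% of the genes tested also showed.

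**Figure D1:**
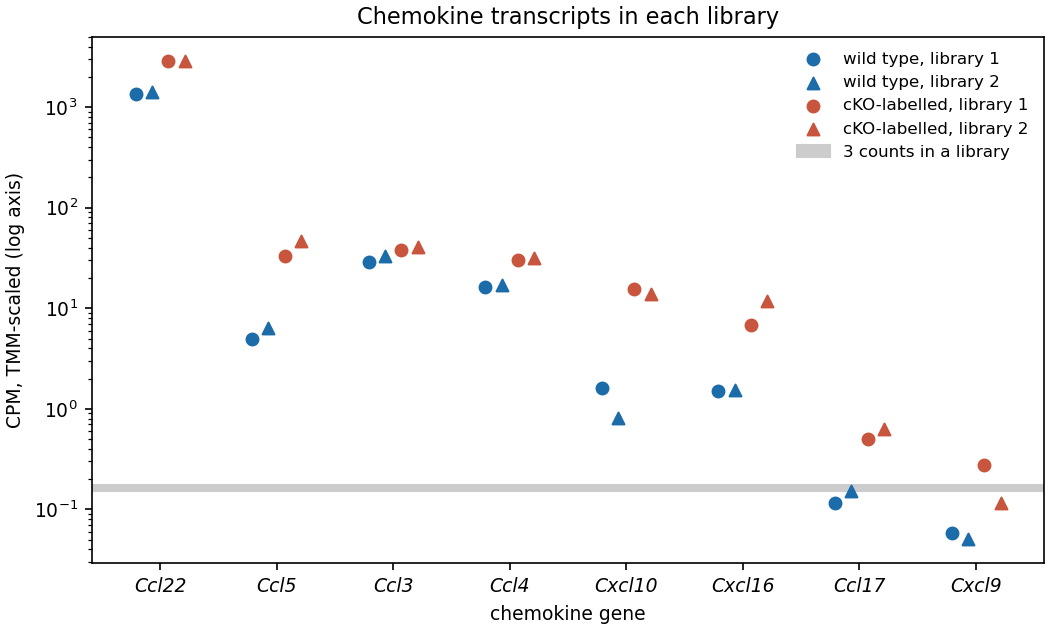
CPM on a log axis of the 8 chemokine genes in each library, with wild type in blue, cKO-labelled in red, library 1 as circles and library 2 as triangles. The grey band marks 3 counts in a library, 0.153 to 0.173 CPM. Ccl22 stands far above the others in every library, and Ccl17 in wild type and Cxcl9 lie near or under the band, except Cxcl9 in cKO-labelled library 1 at 0.278 CPM.

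Levels of the genes were compared with each other per length, in the deposited FPKM (counts scaled to exonic length and library total). Ccl22 was the most abundant member in each library, at 574 and 611 FPKM in wild type and at 1243 and 1248 FPKM in cKO-labelled libraries. Among all rows it ranked 75th and 63rd by FPKM in the wild-type libraries and 29th and 27th in the others. It made up 89.3% and 88.8% of the summed FPKM of the 8 members in wild type, against 89.9% and 88.6% in the others. The sum of the other 7 was 69.0 and 76.9 FPKM in wild type and 140 and 161 FPKM in cKO-labelled libraries.

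The order of mean levels was the same in both genotypes, but the gaps between Ccl3, Ccl4 and Ccl5 were smaller in the cKO-labelled libraries. In wild type, mean FPKM ± SD (n = 2) fell from Ccl3 (40.5 ± 3.81) to Ccl4 (25.2 ± 0.926), Ccl5 (5.92 ± 1.06), Cxcl10 (0.540 ± 0.255), Cxcl16 (0.50 in both libraries) and Ccl17 (0.260 ± 0.0566). The libraries of Cxcl10, at 0.36 and 0.72 FPKM, lay on either side of the Cxcl16 value. In the cKO-labelled libraries Ccl3 (51.4 ± 3.05), Ccl4 (47.0 ± 1.14) and Ccl5 (41.4 ± 9.91) stood close together, ahead of Cxcl10 (6.58 ± 0.495), Cxcl16 (3.08 ± 1.17) and Ccl17 (1.10 ± 0.184). There Ccl5, at 34.4 and 48.4 FPKM, lay on either side of both Ccl4 values, 46.2 and 47.8, while Ccl3 was at 49.3 and 53.6. Cxcl9 was last in both, resting on 2 counts over the wild-type libraries and 5 and 2 in the others.

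The CCR4 ligands came first by role. Ccl22 stood at 1343 and 1422 CPM in wild type against 2888 and 2901 CPM in cKO-labelled libraries 1 and 2. The genotypes were well separated, and the cKO-labelled pair differed by less than the wild-type pair. Its log2 change was 1.07 ± 0.047 (SE, n = 2 per genotype) (edgeR quasi-likelihood test, Benjamini-Hochberg-adjusted p = 2.55e-14). Its reads were 0.134% and 0.142% of all counts in wild type and 0.289% and 0.290% in the others. The Wilson 95% interval, which covers counting error only, was 0.132 to 0.135 in wild-type library 1 and 0.287 to 0.292 in cKO-labelled library 1.

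Ccl17, the partner of Ccl22 at CCR4, was close to the limit of detection. Its counts were 2 and 3 in wild type against 9 and 11 in cKO-labelled libraries, or 0.116 and 0.153 CPM against 0.50 and 0.630 CPM. The ratio of its counts, scaled to library size, was 4.16 with an exact 95% counting interval of 1.52 to 14.2. Both wild-type libraries lay at or under 3 counts. Tested without the filter on low counts, its Benjamini-Hochberg-adjusted p was 0.205 in the edgeR quasi-likelihood test, so a difference beyond the spread of libraries was not detectable at this depth.

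Both genes are also transcribed by dendritic cells, whose markers differed between the genotypes. The summed level of 7 dendritic cell markers was 58.4 and 57.1 CPM in wild type against 108 and 113 CPM in cKO-labelled libraries 1 and 2. Of the 4 tested, 3 rose, where 12.2% of all genes tested were called higher. Flt3, the receptor of a dendritic cell growth factor, rose by 1.61 ± 0.11 (log2 change ± SE, n = 2). Zbtb46, a transcription factor, rose by 0.64 ± 0.079 and Itgax, which encodes CD11c, by 2.40 ± 0.48. Zbtb46 made up most of the sum in each library, at 40.9 and 40.0 CPM in wild type and 59.1 and 66.9 CPM in the others. Itgax rested on 7 and 10 counts against 36 and 51. Xcr1, also tested, changed by 0.42 ± 0.26 and did not pass. Siglech had 9 and 2 counts in wild type against 3 and 14 in the others. Cd209a had no count in any library and Clec9a had 1 or 2 counts in each. The part of dendritic cells in the rise of Ccl22 was not tested. In bulk RNA, more cells of a type and more RNA per cell cannot be told apart.

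Ccl3, Ccl4 and Ccl5 rose by very different amounts, although their genes lie in the same region. Ccl3, which encodes MIP-1 alpha, stood at 29.1 and 33.1 CPM in wild type and at 37.7 and 41.0 CPM in cKO-labelled libraries. The genotypes did not overlap, but the nearest libraries differed only 1.14-fold. Its log2 change was 0.34 ± 0.094 (edgeR quasi-likelihood test, Benjamini-Hochberg-adjusted p = 0.0111). This was the weakest call of the 6. By DESeq2 its adjusted p was 0.0918, without wild-type library 1 the change was 0.24 (adjusted p 0.148, edgeR), and without cKO-labelled library 2 it was 0.27 (adjusted p 0.0853, edgeR).

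Ccl4, which encodes MIP-1 beta, stood at 16.3 and 17.1 CPM in wild type and at 30.5 and 31.6 CPM in cKO-labelled libraries. Libraries of the same genotype agreed within counting error, with a ratio of library 2 to library 1 of 1.05 (95% counting interval 0.892 to 1.23) in wild type and of 1.04 (0.919 to 1.17) in the others. Its log2 change was 0.89 ± 0.11 (edgeR quasi-likelihood test, Benjamini-Hochberg-adjusted p = 1.15e-06).

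Ccl5, which encodes RANTES, stood at 4.99 and 6.41 CPM in wild type and at 33.0 and 46.5 CPM in cKO-labelled libraries. The lowest cKO-labelled library was 5.15 times the highest of wild type. Its log2 change was 2.79 ± 0.16 (edgeR quasi-likelihood test, Benjamini-Hochberg-adjusted p = 3.17e-12). The cKO-labelled libraries differed from each other by more than counting error, with library 2 at 1.41 times library 1 (95% counting interval 1.27 to 1.57). Leaving out either of them kept the change between 2.52 and 3.02.

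NK cells and activated T cells also transcribe Ccl3, Ccl4 and Ccl5. Both carry CD43, and beads against it are used to deplete them, but how far they did so here was not tested. The summed level of 6 NK cell markers was 2.03 and 1.73 CPM in wild type and 6.22 and 8.08 CPM in cKO-labelled libraries. Of the 3 tested, 2 rose, where 12.2% of all genes tested were called higher. Nkg7, a protein of cytotoxic granules, rose by 2.79 ± 0.64 and Prf1, which encodes perforin, by 1.55 ± 0.36 (log2 change ± SE, n = 2). Nkg7 went from 9 and 2 counts to 20 and 55, and its change depended on single libraries. It was 4.29 without wild-type library 1, 2.00 without wild-type library 2, 3.36 without cKO-labelled library 1 and 1.85 without cKO-labelled library 2, where it did not pass (Benjamini-Hochberg-adjusted p = 0.164, edgeR quasi-likelihood test). Ncr1, a defining NK cell receptor, had counts of 4 and 1 in wild type against 6 and 5 in the others. The 7 T cell markers summed to 3.66 and 2.29 CPM in wild type and 3.05 and 4.30 CPM in cKO-labelled libraries, and neither of the 2 tested passed. Trac, the most abundant, had 30 and 22 counts against 15 and 19. The part of NK cells in the rise of Ccl5 was not tested.

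Of the CXCR3 ligands, Cxcl10 had the largest change of the members and Cxcl9 was barely detected. Cxcl10 stood at 1.62 and 0.814 CPM in wild type and at 15.6 and 14.0 CPM in cKO-labelled libraries, from 28 and 16 counts against 281 and 245. Each cKO-labelled library was between 8.64 and 19.2 times a wild-type library. Its log2 change was 3.62 ± 0.25 (edgeR quasi-likelihood test, Benjamini-Hochberg-adjusted p = 8.56e-11), which placed it 33rd by size of rise among 14180 genes tested. The wild-type libraries differed from each other by slightly more than counting error, with library 2 at 0.501 of library 1 (95% counting interval 0.253 to 0.958). The change was therefore 4.17 without wild-type library 1 and 3.18 without wild-type library 2.

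Cxcl9 lies next to Cxcl10, and its counts were 1 and 1 in wild type against 5 and 2 in cKO-labelled libraries. The ratio of its scaled counts was 3.64 with a 95% counting interval of 0.693 to 35.9, which includes no difference. Cxcl11, the other ligand of CXCR3 in this cluster, had 0 and 1 counts against 3 and 3, and GENCODE classes it as a polymorphic pseudogene. It is named for its place, after its values were seen. Art3 overlaps Cxcl10 on the opposite strand, and NEBNext Ultra RNA, the kit the labels name, is not a directional kit. Art3 had between 0 and 4 counts in a library.

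Cxcl16, the ligand of CXCR6, stood at 1.51 and 1.53 CPM in wild type and at 6.83 and 11.8 CPM in cKO-labelled libraries. Wild-type libraries were alike, and cKO-labelled library 2 was 1.73 times library 1 (95% counting interval 1.38 to 2.18), the widest gap between cKO-labelled libraries among the members tested. Its log2 change was 2.61 ± 0.29 (edgeR quasi-likelihood test, Benjamini-Hochberg-adjusted p = 2.80e-07). It was 2.17 when cKO-labelled library 2 was left out and 2.95 when library 1 was. Zmynd15 overlaps Cxcl16 on the opposite strand with counts of 16 and 9 in wild type against 34 and 21 in the others, fewer than Cxcl16 in each library.

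**Figure D2:**
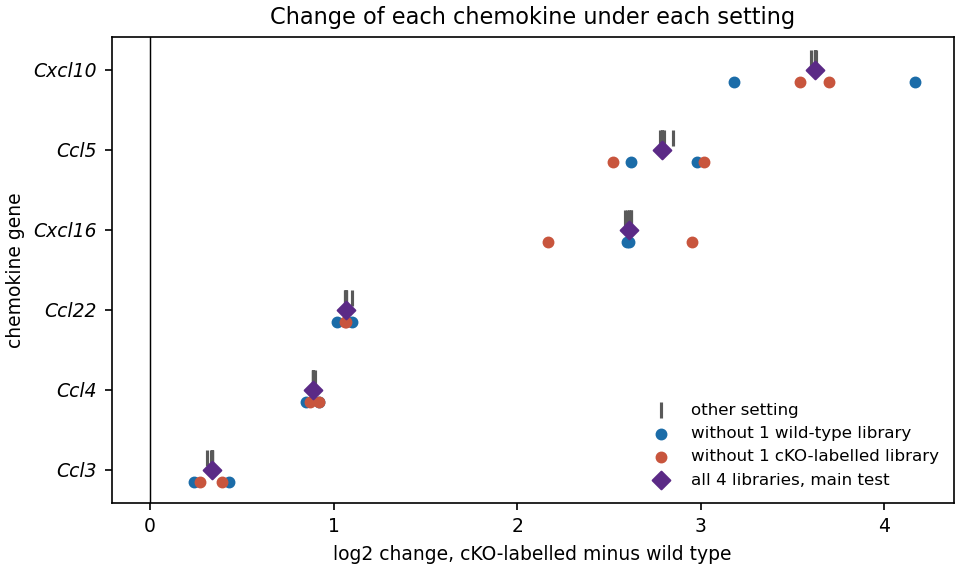
Log2 change of the 6 members tested, cKO-labelled minus wild type, in the main test of all 4 libraries (diamonds), without 1 wild-type library (blue), without 1 cKO-labelled library (red) and under the other settings (grey bars). All values lie above 0. Those of Cxcl10 spread most when a wild-type library is left out, from 3.18 to 4.17, and those of Cxcl16 when a cKO-labelled library is left out, from 2.17 to 2.95.

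Other chemokine ligands were at low levels. Of 30 others, 9 were tested, and 16 had at most 3 counts over all libraries. Of the 9 tested, 4 were higher and 5 did not pass, where 12.2% of all genes tested were called higher. Their summed level was 13.8 and 13.7 CPM in wild type and 30.3 and 36.8 CPM in cKO-labelled libraries, against 1397 and 1481 CPM and 3013 and 3046 CPM for the 8 members. Ccl1, the ligand of CCR8, rose from 31 and 24 counts to 138 and 251, a log2 change of 2.87 ± 0.30. Xcl1, which attracts cross-presenting dendritic cells, rose from 11 and 24 counts to 92 and 82, a change of 2.37 ± 0.35. Cx3cl1, or fractalkine, lies between Ccl22 and Ccl17 and rose from 25 and 33 counts to 104 and 99, a change of 1.86 ± 0.29.

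Cxcl1, a neutrophil attractant, was called from 4 and 2 counts against 14 and 31, with a log2 change of 2.91 ± 0.71 that did not pass without wild-type library 2 (2.41) or without cKO-labelled library 2 (2.20). It was 3.55 without wild-type library 1 and 3.39 without cKO-labelled library 1. Among the markers of neutrophils, S100a9 rose by 1.67 ± 0.52 from 13 and 7 counts to 23 and 39. Its call was also lost without wild-type library 2 (1.20) or cKO-labelled library 2 (1.21), and by the DESeq2 test (adjusted p 0.141). The change of S100a9 was 2.27 without wild-type library 1 and 2.02 without cKO-labelled library 1. The 6 neutrophil markers summed to 1.22 and 0.712 CPM in wild type and 2.50 and 3.44 CPM in cKO-labelled libraries, with no count of Ly6g. Their part in the change of Cxcl1 was not tested.

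**Figure D3:**
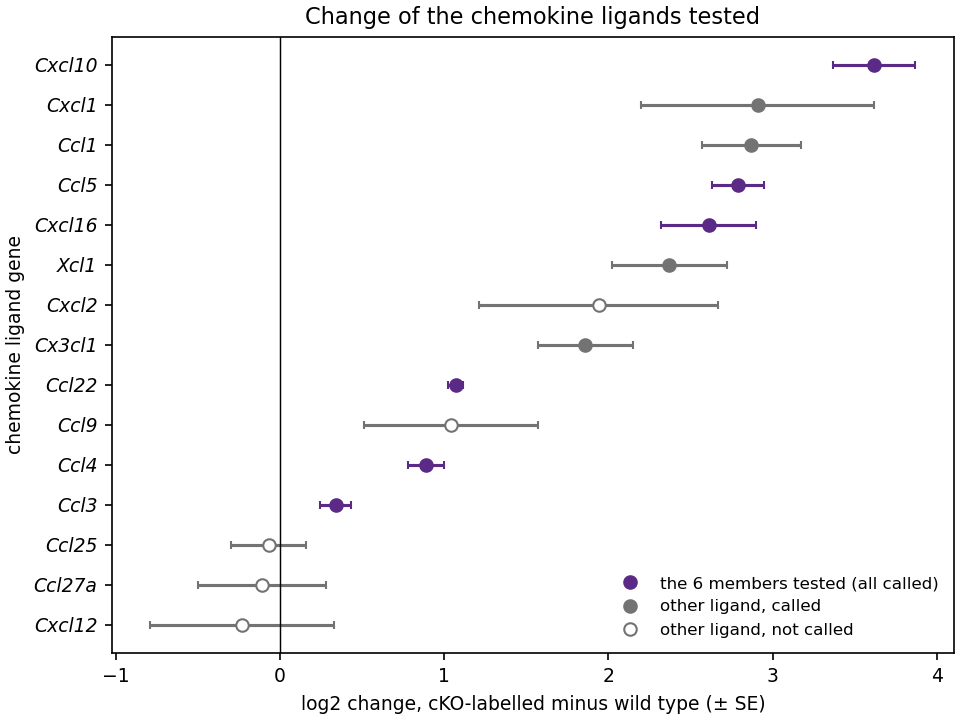
Log2 change, cKO-labelled minus wild type, with SE bars, of the 15 chemokine ligands tested. The 6 members are purple and the other ligands grey, filled where called at an adjusted p under 0.05. Changes run from -0.23 for Cxcl12 to 3.62 for Cxcl10.

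Most of the tested genes around the members did not pass, as was also so over all genes. Within 50 kb of a member lay 36 genes that are no members, of which 13 were tested, 2 were higher, 2 were lower and 9 did not pass. Of all 14180 genes tested, 12.2% were called higher and 9.54% lower. The higher ones were Cx3cl1 and Tm4sf5, a tetraspanin-like gene near Cxcl16 (1.17 ± 0.39, from 17 and 25 counts to 42 and 49). The lower ones were Naaa, a lysosomal amidase near Cxcl9 (-0.41 ± 0.12), and Coq9, a gene of coenzyme Q synthesis near Ccl17 (-0.26 ± 0.082). Med11 lies 256 bases from Cxcl16 on the opposite strand and had a change of -0.08 ± 0.072, which did not pass.

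The 7 receptor genes listed for the members summed to 27.2 and 26.5 CPM in wild type and 55.7 and 50.2 CPM in cKO-labelled libraries. Of the 5 tested, 2 were called higher, where 12.2% of all genes tested were. Cxcr3 (1.05 ± 0.45), Cxcr6 (1.46 ± 0.62) and Ackr2 (0.15 ± 0.27) did not pass (log2 change ± SE). Ccr1, a receptor of CCL3 and CCL5, rose from 17.2 ± 1.02 to 35.5 ± 0.313 CPM (mean ± SD, n = 2), a log2 change of 1.05 ± 0.10. Ccr4, the receptor of CCL22 and CCL17, had counts of 2 and 0 in wild type against 1 and 1 in the others, under the floor in each.

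Of 16 other chemokine receptors, 9 were tested and 5 rose, where 12.2% of all genes tested were called higher. Ackr3, a scavenger of CXCL12, rose from 2.37 ± 0.834 to 19.9 ± 0.643 CPM, a log2 change of 3.08 ± 0.20. Ccrl2, which binds the attractant chemerin without signalling, rose from 4.18 ± 0.735 to 19.1 ± 0.890 CPM, a change of 2.20 ± 0.17. Ccr7, which guides lymphocytes to lymph node T zones, rose from 136 ± 0.261 to 281 ± 32.7 CPM, a change of 1.04 ± 0.069. Ccr6 (0.23 ± 0.065) and Cxcr4 (0.34 ± 0.11) were called too, but without cKO-labelled library 2 their changes were 0.13 and 0.13 and did not pass. By the DESeq2 test the call of Cxcr4 was lost as well (adjusted p 0.127), which left 4 calls.

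Proteases that act on these chemokines changed little. Dpp4, which trims CXCL10 and CCL22, rose from 94.4 ± 2.88 to 122 ± 2.07 CPM, a log2 change of 0.37 ± 0.061. Adam10 and Adam17, which release CXCL16 from the membrane, went in opposite directions by -0.19 ± 0.060 and 0.19 ± 0.061. Both of these calls were lost by DESeq2 and without any of wild-type library 1, wild-type library 2 or cKO-labelled library 2, and that of Adam17 also after removal of the GC trend of each library.

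Of 15 transcription factors known to act on chemokine genes, 8 rose, where 12.2% of all genes tested were called higher. DESeq2 called 7 of the 15 higher, and 10 were called higher after removal of the GC trend of each library. Factors with large changes included Irf7 (2.45 ± 0.080), Stat2 (1.18 ± 0.061), Irf1 (0.75 ± 0.062) and Irf9 (0.60 ± 0.060), all of which act in responses to interferon. Stat2 went from 75.5 ± 0.411 to 171 ± 5.61 CPM. Irf5 rose by 0.34 ± 0.059. Of the 10 IRF and STAT genes in the list, 7 were called higher. Irf3 (-0.02 ± 0.062), Irf4 (0.04 ± 0.057) and Stat6 (-0.08 ± 0.059) did not pass. Of the 5 NF-kB subunits in the list, 1 was called, Relb (0.22 ± 0.068), named after its value was seen. The others had changes of -0.05 ± 0.056 for Nfkb1, 0.09 ± 0.053 for Nfkb2, -0.06 ± 0.060 for Rel and 0.09 ± 0.065 for Rela, and did not pass.

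Genes whose pattern over the 4 libraries was most like that of Ccl22, among those tested whose mean reached 20 CPM, were Nedd4, Cd86 and Gbp5. The root-mean-square difference of their centred log2 CPM from that of Ccl22 was 0.0264, 0.0287 and 0.0368. They encode a ubiquitin ligase, a co-stimulatory ligand of T cells and a guanylate-binding protein. With 4 libraries in 2 genotypes, likeness of this kind is mostly a like fold change.

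B-cell identity of the libraries was checked with 5 markers, which summed to 4141 and 4104 CPM in wild type and 3113 and 3220 CPM in cKO-labelled libraries. Cd79a and Cd79b, the signalling chains of the B-cell receptor, fell by 0.34 ± 0.054 and 0.33 ± 0.059 on the log2 scale. Pax5, a transcription factor of B-cell identity, fell by 0.23 ± 0.054. Ms4a1 went the other way, with a change of 0.11 ± 0.053 that did not pass. The 7 macrophage and monocyte markers summed to 129 and 123 CPM in wild type and 46.6 and 55.8 CPM in cKO-labelled libraries. Adgre1, which encodes F4/80, made up most of that sum and fell by 1.63 on the log2 scale. The other 6 summed to 17.8 and 15.5 CPM in wild type against 16.3 and 15.4 CPM in the others. The 4 of these tested had log2 changes of 1.33 ± 0.61 for Cd14, 0.30 ± 0.25 for Lyz2, -0.26 ± 0.16 for Cd68 and -0.58 ± 0.59 for Csf1r (adjusted p from 0.131 to 0.557, edgeR). The part of these cells in the chemokine changes was not tested.

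**Figure D4:**
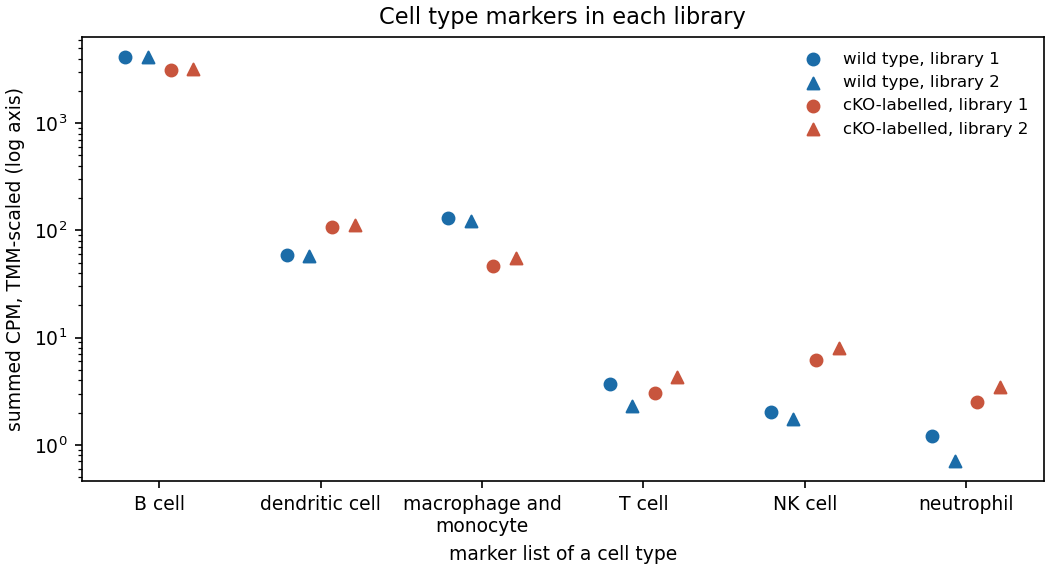
Summed CPM on a log axis of the markers of 6 cell types in each library, with wild type in blue, cKO-labelled in red, library 1 as circles and library 2 as triangles. B cell markers lead in each library at 3113 to 4141 CPM, and dendritic cell markers stand at 57.1 to 113 CPM.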

How the data were processed

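RNA was measured in 4 libraries, 2 per genotype, grouped by their titles. Per the submitters' processing notes, the tools were HISAT2 2.0.1 and HTSeq 0.6.1 on build GRCm38, with bcl2fastq 2.17.1.14 and cutadapt 1.9.1. No role, counting option (strand included) or annotation release is given in the sources used here. The authors deposited whole-number read counts per gene and FPKM values, which follow from the counts, the library total and the tabulated exonic length.

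The counts of all genes were fitted with edgeR 4.0.16 (R 4.3.3) on TMM-scaled libraries. The 14180 genes that passed filterByExpr, at a minimum count of 10 and a minimum total of 15, were tested for genotype by glmQLFit and glmQLFTest. A Benjamini-Hochberg adjusted p under 0.05 over all genes tested was a call. SE was derived from the log2 change and the F statistic (the size of the change over the root of F), and can understate counting error for genes of few counts. Ratios of counts have exact conditional 95% intervals, which cover counting error only, since PCR copies are not independent molecules. Replicates of a genotype were not alike within sampling noise (mean chi-square 9.23 in wild type and 4.66 in cKO-labelled libraries).

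The members and gene lists were chosen with earlier results of these data known. Named genes were all members, up to 6 called genes of each other list by adjusted p or else its most abundant gene, called genes within 50 kb of a member, genes overlapping a member, and the 3 most like Ccl22. Marker lists gave the check of cell types. GENCODE M21 matched 99.53% of rows and supplied gene types and GC content, the latter from each gene's longest transcript. Alternatives were DESeq2 size factors, the DESeq2 1.42.0 test, no filter on low counts, each library left out, the replicate number as a block, removal of each library's GC trend, and removal of ribosomal RNA rows. Some genes that the naming rule selects are not reported here.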

Additional observations from a re-analysis of the deposited data

How the results depend on the processing

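The 6 members tested were higher under every alternative run, and their calls held except that of Ccl3. By the DESeq2 test Ccl3 changed by 0.34 with an adjusted p of 0.0918, and with 1 library left out its change lay between 0.24 and 0.43. DESeq2 thus called 5 members. It called 1118 genes higher and 740 lower over all genes. Of the proteases, DESeq2 called 1 higher and 0 lower, removal of the GC trend left 1 higher, and leaving out 1 library gave 1 to 2 higher and 0 to 1 lower. For the other chemokine receptors that range was 3 to 5 higher. The cause of these differences was not tested, though fits of 3 libraries rest on fewer samples. The replicate numbers do not pair the libraries by any label, and their deviations correlated at -0.029. With the replicate block 1904 genes were higher and 1594 lower, against 1727 and 1353 without, and 6 members were higher. Depth limits Ccl17 and Cxcl9, whose wild-type libraries held at most 3 counts. Without the filter on low counts their changes were 2.00 and 1.73 (adjusted p 0.205 and 0.706, edgeR).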
